A study of Homo sapiens with 22 samples.

Results

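The regions described here lie at 6 endoderm genes, the transcription factors HNF4G, HNF4A, ONECUT1, GATA4 and GATA6, which act with FOXA2 in liver, pancreas and gut, and SPINK1. A region of a list was taken when it lay within 100 kb of 1 of these gene bodies (GENCODE, hg19) or when 1 of the 6 was its nearest protein-coding gene. This gave 1196 of the 871377 regions of the 22 deposited lists, and 6 of 20136 protein-coding genes. The loci were chosen by measured values of these data, among them the score of the strongest PC3 FOXA2 region that was not found again under ORY-1001, which is nearest to HNF4G, so that region and the comparison of PC3 vehicle with ORY-1001 are given as a description. At the edge of the rule, the outermost SPINK1 region inside the 100 kb lay 86482 bp from the gene with a score of 88, and the next one, at 109822 bp with a score of 178, was not a member. At HNF4G the corresponding regions lay 95107 bp (score 201) and 129517 bp (score 93) away, and the latter entered through its nearest gene.

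The study asked how FOXA2 and the AP-1 factors JUN and FOSL1 occupy chromatin in prostate cancer cell lines, and how far this depends on LSD1. FOXA2 was profiled by ChIP-seq in PC3 cells given vehicle, 10 µM ORY-1001 or 0.5 µM C12 for 4 h, and in NCI-H660 cells given vehicle or 10 µM ORY-1001 for 4 h. Both compounds inhibit the histone demethylase LSD1. A pair of further FOXA2 ChIPs from PC3 cells, vehicle by their titles, carried no antibody label. JUN was profiled under negative control siRNA (siNC) or FOXA2 siRNA (siFOXA2) in PC3 and NCI-H660, FOSL1 likewise in PC3, and JUN in LNCaP under siNC or FOXA1 siRNA (siFOXA1). LNCaP cells that overexpress FOXA2 gave a FOXA2 and a JUN list, and LNCaP_FOXA2K265R cells, titled after a FOXA2 point mutant but labelled with the overexpressing line, gave a JUN list. ATAC-seq, which maps accessible chromatin, was available for PC3 and NCI-H660, with H3K27ac for PC3 and H3K4me2 for NCI-H660. PC3 is a line without androgen receptor signalling and with stem-like features, NCI-H660 is a neuroendocrine line and LNCaP is a luminal, androgen-dependent line. Except for the 2 further FOXA2 ChIPs, every group was 1 list, so no comparison had a replicate check, and no test was run.

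FOXA2 is a pioneer factor that opens chromatin in the embryonic endoderm and keeps liver and pancreas genes active. HNF4A and HNF4G are nuclear receptors of hepatocytes and intestinal epithelium, ONECUT1 (HNF6) is a homeodomain factor of liver and pancreas, and GATA4 and GATA6 are zinc finger factors that act beside FOXA proteins in endoderm. SPINK1 is a secreted trypsin inhibitor of pancreas and gut that is also produced by a subset of prostate cancers.

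The windows that carry the main regions outside HNF4G are printed first. Each is 201 bp around the centre of a deposited region, hg19, plus strand, 5′ to 3′, and the capitals mark matches to a forkhead motif (TNTTTNN on either strand, where the N are a purine, a purine and a pyrimidine) or an AP-1 motif (TGANTCA on either strand, where N is a cytosine or guanine). The SPINK1 window is the strongest FOXA2 region of the 6 loci in PC3, the GATA6 start is the FOXA2 region at a transcription start in both lines, the window before GATA6 is its strongest FOXA2 region in NCI-H660, and the remaining GATA6 windows are the strongest JUN regions of PC3 and of NCI-H660. They lie at chr5:147215014-147215214, chr18:19749331-19749531, chr18:19678599-19678799, chr18:19612440-19612640 and chr18:19803686-19803886, and all are intergenic.
SPINK1 upstream, FOXA2: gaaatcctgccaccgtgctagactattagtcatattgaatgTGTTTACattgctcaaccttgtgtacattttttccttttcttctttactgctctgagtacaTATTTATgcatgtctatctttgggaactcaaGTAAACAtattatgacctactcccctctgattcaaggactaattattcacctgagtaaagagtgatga
GATA6 start, FOXA2: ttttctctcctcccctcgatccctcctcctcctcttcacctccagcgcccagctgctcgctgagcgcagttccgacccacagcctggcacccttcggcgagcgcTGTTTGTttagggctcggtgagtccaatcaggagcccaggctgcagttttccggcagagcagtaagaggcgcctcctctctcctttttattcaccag
GATA6 upstream, FOXA2 in NCI-H660: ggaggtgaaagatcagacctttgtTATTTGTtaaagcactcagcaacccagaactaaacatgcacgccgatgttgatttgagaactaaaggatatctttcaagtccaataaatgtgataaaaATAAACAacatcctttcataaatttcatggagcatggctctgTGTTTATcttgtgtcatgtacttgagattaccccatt
GATA6 upstream, JUN in PC3: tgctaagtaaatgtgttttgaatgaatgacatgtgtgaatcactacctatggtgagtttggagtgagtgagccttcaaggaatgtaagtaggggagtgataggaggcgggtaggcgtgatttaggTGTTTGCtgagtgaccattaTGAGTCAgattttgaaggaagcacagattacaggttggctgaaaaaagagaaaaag
GATA6 downstream, JUN in NCI-H660: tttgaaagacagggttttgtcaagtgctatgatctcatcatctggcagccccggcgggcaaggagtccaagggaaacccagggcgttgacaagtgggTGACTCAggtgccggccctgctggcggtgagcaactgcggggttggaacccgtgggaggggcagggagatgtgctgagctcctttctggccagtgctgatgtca

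The SPINK1 window held 3 forkhead matches and the NCI-H660 window before GATA6 held 3 as well. The PC3 JUN window held a forkhead and an AP-1 match, the GATA6 start 1 forkhead match, and the NCI-H660 JUN window 1 AP-1 match and no forkhead match. Over the 43 PC3 FOXA2 regions of the 6 loci, 35 (81.4%, 95% Wilson interval 67.4 to 90.3) held a forkhead match within 100 bp of the centre, beside 77.3% of all 24038 regions of that list. An AP-1 match was held by 8 (18.6%, 9.74 to 32.6) beside 26.4% of all, a GATA match (NGATAN on either strand, with adenine or thymine first and a purine last) by 12 beside 32.9%, and an ONECUT match (ATTGAT, either strand) by 5 (11.6%) beside 9.91%. None of the 43 held the HNF4 letters CAAAGTCCA or their reverse complement, which 0.300% of all regions of that list held. In NCI-H660, 16 of 23 FOXA2 regions (69.6%, 49.1 to 84.4) held a forkhead match beside 75.9% of all 11886. The members' forkhead shares therefore lay within their counting error of the whole lists. Matches are letters only, and intervals here and below cover counting error only, since the depth behind the lists is unknown.

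HNF4G carried most of the regions. In vehicle PC3 cells 43 FOXA2 regions fell to the 6 loci, 25 at HNF4G, 10 at SPINK1, 4 at GATA6, 2 at HNF4A and 1 each at ONECUT1 and GATA4. In vehicle NCI-H660 cells 23 did, 12 at HNF4G, 5 at GATA6, 3 at ONECUT1, 2 at SPINK1, 1 at HNF4A and none at GATA4. HNF4G lies beside a gene-poor stretch, with 1114 kb to the next protein-coding gene, ZFHX4, and 373 kb back to CRISPLD1, so the nearest-gene part of the rule reaches further there than at the other loci. Of the 25 PC3 regions, 14 lay past the gene, 7 inside it and 4 before it. The 10 SPINK1 regions all lay within 100 kb of the gene, a number above that of 98.1% of protein-coding genes, whose median was 1. Counted within 100 kb, HNF4G also lay above 98.1% of genes, HNF4A and GATA6 above 54.5%, and ONECUT1 and GATA4 above 29.7%. These counts were not adjusted for the length of the window, which grows with the gene body (359 kb at HNF4G and 207 kb at SPINK1). Within 100 kb of the 6 genes there were 16.3 FOXA2 regions per Mb in vehicle PC3, beside 8.41 over the genome. The members' median score was 240 in vehicle PC3, beside 150 for the whole list, and 107 in vehicle NCI-H660, beside 134. The loci were chosen by values of these data, so the PC3 counts, density and median score are given as a description.

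**Figure D1:**
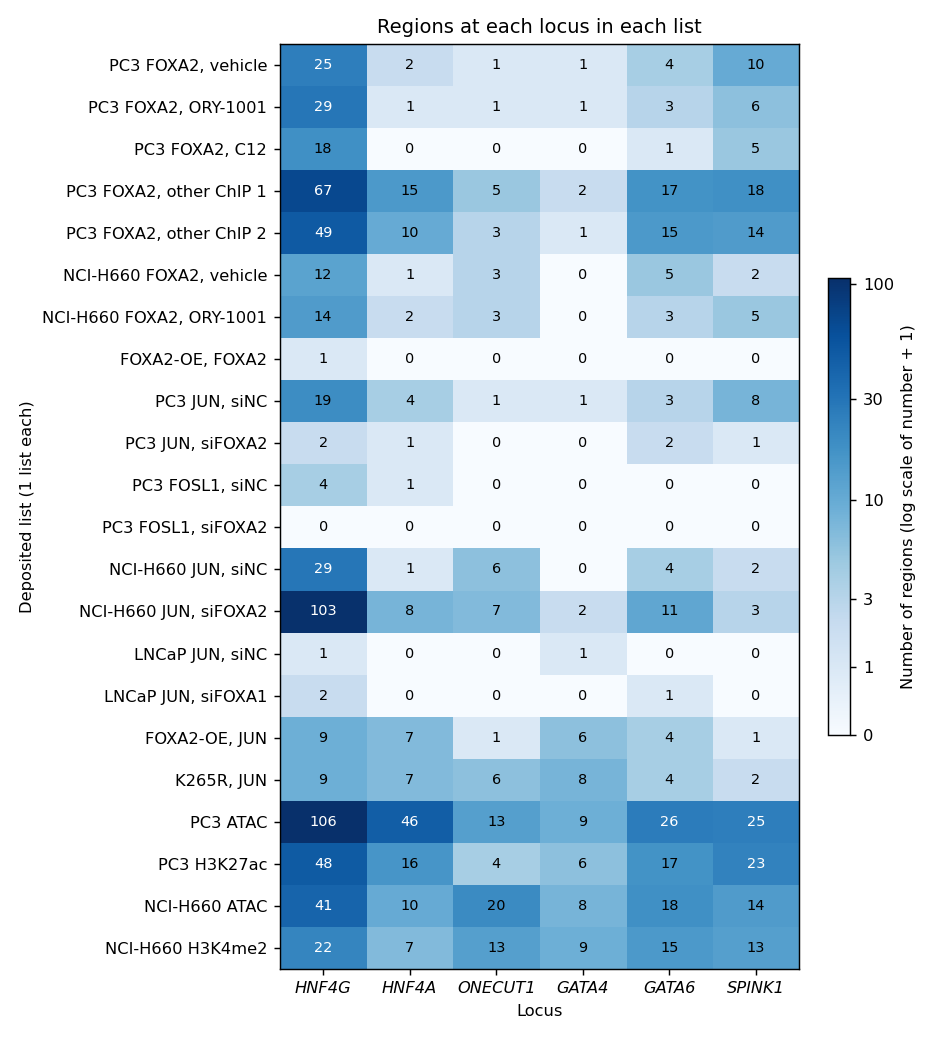
Number of deposited regions at each of the 6 loci (columns) in each of the 22 lists (rows), with colour on a log scale of the number plus 1. HNF4G has 25 regions for FOXA2 in vehicle PC3, 12 in vehicle NCI-H660 and 106 for PC3 ATAC, and the PC3 FOSL1 list under siFOXA2 has none at any locus.

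The strongest FOXA2 sites of the 6 loci in PC3 were a SPINK1 and an HNF4G element. The SPINK1 region at chr5:147214851-147215376, intergenic and 3617 bp upstream of the gene, had a score of 2949 in the vehicle list, rank 46 of 24038. The score is the one MACS2 gave, read here as 10 times −log10 of q, and it rises with depth, so it is set side by side between lists and not compared as a level. The HNF4G region at chr8:76756998-76757501, intergenic and 277929 bp past the gene, scored 2573, rank 59. In the 2 further FOXA2 ChIPs the HNF4G region ranked 1 in both, of 77822 and of 62714 regions, with scores of 3934 and 3510. The SPINK1 region ranked 3 and 6 there, with scores of 3604 and 3183. Both elements were thus near the top of all 3 vehicle FOXA2 lists of PC3. The values that chose the loci may include those of the further ChIPs, so these ranks are given as a description. The same 2 ChIPs held 42 of the 43 members each (97.7%, 87.9 to 99.6), beside 92.5% and 90.8% of all vehicle regions.

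The SPINK1 element was also the strongest FOXA2 region of the 6 loci in NCI-H660. The NCI-H660 call, chr5:147214889-147215311, scored 786 under vehicle (rank 353 of 11886) and 878 under ORY-1001. The element was accessible in both lines, with ATAC scores of 2710 in PC3 and 1036 in NCI-H660, and its H3K27ac score in PC3 was 28. The PC3 JUN list under siNC held it with a score of 500, and the JUN list under siFOXA2 and both NCI-H660 JUN lists did not. The HNF4G element, by contrast, was called in no NCI-H660 FOXA2, JUN or ATAC list. In PC3 it had an ATAC score of 1192, an H3K27ac score of 411 and a JUN score of 44.

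A further SPINK1 region ranked high in PC3 without a counterpart in NCI-H660. It lay at chr5:147278357-147278861 in an intron of C5orf46, upstream of SPINK1, with a score of 1264 (rank 356), an H3K27ac score of 1745 and a JUN score of 452. The other 8 SPINK1 regions of vehicle PC3 scored between 88 and 456. Only the upstream element and chr5:147189544-147189798 had SPINK1 as the nearest protein-coding gene, and the rest were nearest to JAKMIP2 or C5orf46.

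FOXA2 regions shared between the lines were few. Of the 43 PC3 regions, 8 (18.6%, 9.74 to 32.6) overlapped an NCI-H660 region by at least 1 bp, beside 11.1% of all PC3 regions. Seen from NCI-H660, 8 of 23 (34.8%, 18.8 to 55.1) overlapped a PC3 region, beside 22.5% of all. Both intervals contain the share of the whole list. The 8 places were the SPINK1 element, the start of GATA6 and 6 regions at HNF4G.

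The region at the start of GATA6, chr18:19749320-19749582, scored 240 in vehicle PC3 and 195 in vehicle NCI-H660, and 591 and 541 in the 2 further PC3 ChIPs. It reached from upstream of the gene into annotated UTR and was accessible in both lines (ATAC scores of 1866 and 1512). At HNF4G, the shared region in the gene at chr8:76332854-76333286 (intron) scored 325 in PC3 and 186 in NCI-H660. The one 385188 bp past the gene, chr8:76864257-76864897, scored 561 and 286. Both were accessible in both lines. The other 4 shared HNF4G regions, which start at 76147893, 76239018, 76396802 and 76811131 on chromosome 8, scored from 86 to 349 in PC3 and from 65 to 99 in NCI-H660.

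The HNF4G region at chr8:76239018-76239346, intergenic and before the gene, recurred in 13 of the 22 lists. They included the only FOXA2 region of the 6 loci in FOXA2-overexpressing LNCaP cells, both LNCaP JUN lists and the PC3 FOSL1 list under siNC. It was absent from both ATAC lists and from both further FOXA2 ChIPs, and its window held no forkhead and no AP-1 match. No member region recurred in 17 or more lists, the number set for shared places, and the highest number was 14.

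Of the 15 NCI-H660 regions without a counterpart in the PC3 vehicle list, the strongest was chr18:19678488-19678909, 70641 bp upstream of GATA6, with a FOXA2 score of 601 (rank 625), an ATAC score of 1102 and an H3K4me2 score of 197. It had scores of 117 and 135 in the 2 further PC3 ChIPs. At HNF4G the strongest was chr8:76236713-76237175, upstream and intergenic, with a FOXA2 score of 537 and an ATAC score of 6029. At HNF4A it was chr20:42930933-42931656, at a UTR of the neighbouring FITM2, with a score of 297 and a JUN score of 1844 under siNC. ONECUT1 was represented by chr15:53116873-53117087, 33598 bp upstream, with a score of 107.

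**Figure D2:**
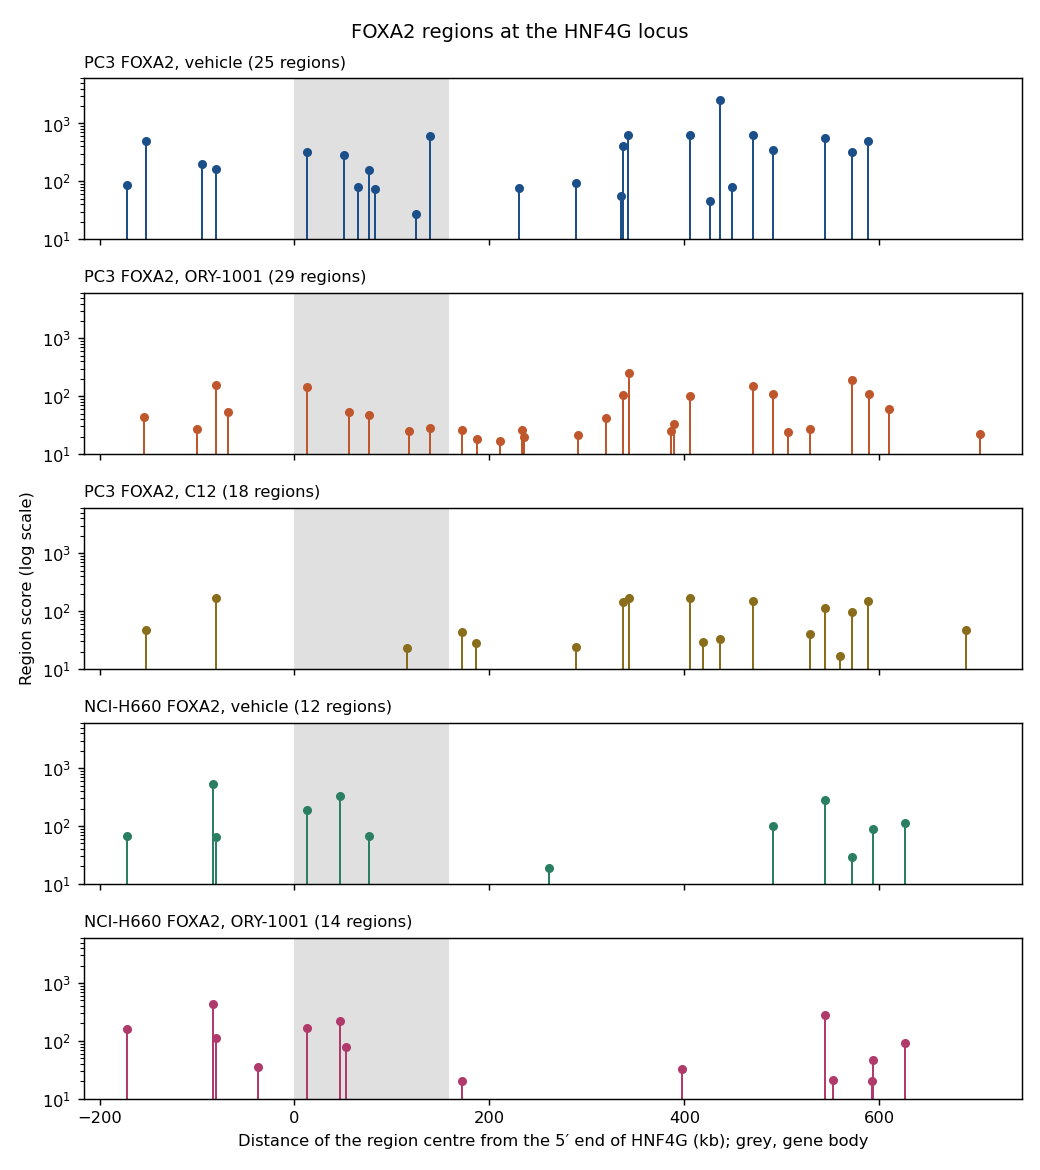
FOXA2 regions at HNF4G in 5 lists, by distance of the region centre from the 5′ end of the gene in kb (x axis) and region score on a log axis (y axis), with the gene body in grey. The tallest PC3 vehicle region (score 2573) lies past the gene and is missing under ORY-1001, where the highest score is 256, and NCI-H660 has 12 regions under vehicle and 14 under ORY-1001.

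LSD1 inhibition was then compared at the 6 loci. In PC3, 21 of the 43 FOXA2 regions (48.8%, 34.6 to 63.2) were found again under ORY-1001, beside 36.8% of all 24038. Under C12, 16 of 43 (37.2%, 24.4 to 52.1) were found again, beside 29.6% of all. Both shares lay within counting error of the whole list, and the difference between the compounds has no replicate check. The doses were 10 and 0.5 µM and both comparisons use the same vehicle list, so their values are given side by side only. Of the 43 regions, 12 were kept under both compounds, 9 under ORY-1001 alone, 4 under C12 alone and 18 under neither (27.9%, 20.9%, 9.30% and 41.9%), beside 24.0%, 12.8%, 5.63% and 57.5% of all. Equal numbers of the highest-scoring regions raised the kept share to 67.9% for ORY-1001 and to 59.1% for C12, beside 53.0% and 61.2% of all. With regions within 100 kb only, the C12 share was 19.2%, below that of the whole list.

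By vehicle score, the SPINK1 element was the strongest region kept under either compound. Its score was 260 under ORY-1001 (rank 2484 of 13732) and 1057 under C12 (rank 121 of 8352). The C5orf46 intron region upstream of SPINK1 scored 540 and 340. SPINK1 kept 5 of its 10 regions with ORY-1001 and 4 with C12. The pair thus changed places, the upstream element lying lower than the intron region under ORY-1001 and higher under C12.

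The start of GATA6 was held under ORY-1001, with a score of 305, and absent under C12. Of the other 3 GATA6 regions, the one 136853 bp upstream, chr18:19612300-19612697, scored 395 under vehicle, 298 under ORY-1001 and 212 under C12. Its neighbour, chr18:19611696-19612016, scored 336, 143 and absent. The fourth, with a score of 67, was absent under both. HNF4A had a region inside the gene, chr20:43016022-43016374 (intron, score 406), that was absent under both compounds, and a region in an intron of SERINC3 (score 262) that scored 189 under ORY-1001 and was absent under C12. The GATA4 region, at FDFT1, scored 106 under vehicle and 130 under ORY-1001 and was absent under C12, and the ONECUT1 region, at ATOSA, scored 88 and was absent under both. HNF4A, ONECUT1 and GATA4 thus had no FOXA2 region left in the C12 list.

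At HNF4G ORY-1001 and C12 each left 11 of 25 regions (interval 26.7 to 62.9% for each), 7 of them kept with both. The strongest, the region 277929 bp past the gene, was absent under ORY-1001 and scored 33 under C12. The strongest lost under C12 was in the gene, at chr8:76458677-76459200 (intron), with scores of 597 under vehicle and 28 under ORY-1001. The highest HNF4G score was 256 under ORY-1001 and 169 under C12.

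The number of FOXA2 regions at HNF4G did not drop with the list under ORY-1001. The whole FOXA2 list went from 24038 to 13732 regions under ORY-1001 (0.571 of vehicle), while HNF4G went from 25 to 29 (1.16 of vehicle). Of the 29 regions, 18 had no vehicle counterpart, and over the 6 loci 20 of 41 were new (48.8%), beside 35.6% of the whole list. The 18 scored from 17 to 60 with a median of 26, beside a median of 35.0 for all new regions. They held a forkhead match in 3 cases (16.7%, beside 33.0% of all new regions), overlapped a PC3 ATAC region in 3 (16.7%, beside 39.9%) and were found in neither further FOXA2 ChIP (0 of 18, beside 23.8% of all new regions found in at least 1). Among the 11 kept HNF4G regions, 9 held a forkhead match and 9 overlapped an ATAC region (81.8% each, beside 74.9% and 95.6% of all kept regions). Most new regions lay outside accessible chromatin at HNF4G and in the whole list. Without HNF4G the loci went from 18 to 12 regions (0.667 of vehicle), of which 2 were new (16.7%). The highest-scoring new region of the 6 loci, chr15:52970732-52971013 at a UTR of ATOSA in the ONECUT1 locus, scored 119, was accessible and recurred in 11 lists.

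In NCI-H660, 15 of 23 regions (65.2%, 44.9 to 81.2) were kept under ORY-1001, beside 68.4% of all 11886. The number of member regions was 27 under ORY-1001, and 9 of the 15 kept regions had a lower score there than under vehicle. The latter count was not made for the whole list and scores move with depth, so it is not read as a change at the loci. The SPINK1 element scored 786 and 878, the region 70641 bp upstream of GATA6 601 and 739, the HNF4A region at FITM2 297 and 403, and the start of GATA6 195 and 180. The HNF4G region chr8:76236713-76237175 scored 537 and 433, and the SPINK1 region chr5:147114327-147114697, in an intron of JAKMIP2, 355 and 203. The highest-scoring region lost, chr8:76811187-76811466 past HNF4G, scored 99, and the highest-scoring new one, chr5:147117576-147117815 in an intron of JAKMIP2 in the SPINK1 locus, 150. The median vehicle score was 58.5 for the 8 lost and 286 for the 15 kept, beside 73.0 and 183 over the whole list. In PC3 under ORY-1001 the medians were 90.5 for the 22 lost and 336 for the 21 kept, beside 112 and 283. By median, lost regions were thus the weaker ones at the loci and in the whole lists alike. Single regions departed from this in PC3. The HNF4G region with a score of 2573 was lost, and at HNF4A the lost region (406) outscored the kept one (262).

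**Figure D3:**
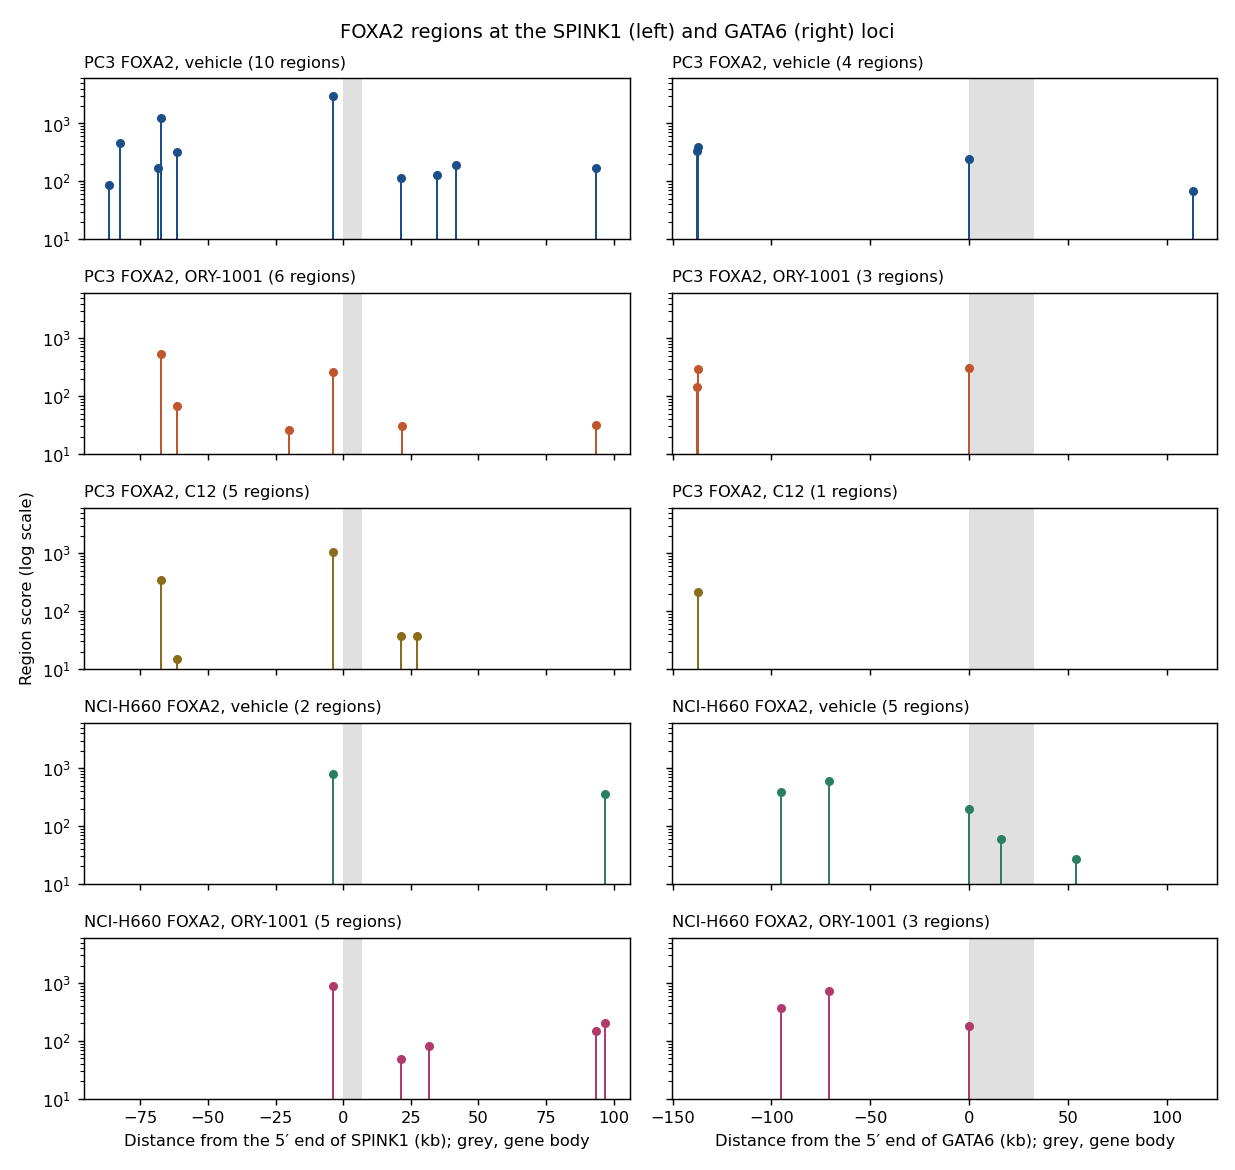
FOXA2 regions at SPINK1 (left) and GATA6 (right) in 5 lists, by distance of the region centre from the 5′ end of the gene in kb (x axis) and region score on a log axis (y axis), with gene bodies in grey. The SPINK1 element just upstream is present in all 5 lists, with scores from 260 to 2949, and the GATA6 start region is missing under C12 only.

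**Figure D4:**
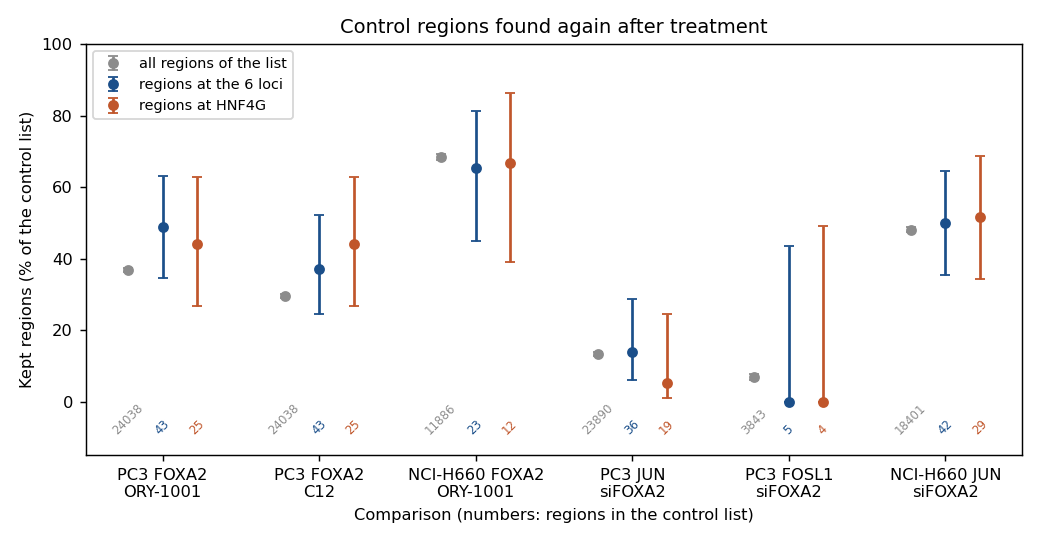
Share of control regions found again after treatment, in percent, for all regions of the list (grey), the 6 loci (blue) and HNF4G (orange), with 95% Wilson intervals and the number of control regions under each point. The 6 loci lie from 0% (FOSL1) to 65.2% (NCI-H660, ORY-1001), and their intervals contain the share of all regions in the 6 comparisons shown.

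JUN and FOXA2 met at similar shares of the loci and of the whole lists. In PC3, 20 of 43 FOXA2 regions (46.5%, 32.5 to 61.1) overlapped a JUN region under siNC, beside 44.3% of all. In NCI-H660, 9 of 23 (39.1%, 22.2 to 59.2) did, beside 36.4%. The strongest PC3 JUN region of the 6 loci was chr18:19612333-19612746, 136804 bp upstream of GATA6, with a score of 821 (rank 669 of 23890), at the FOXA2 region that was kept under both compounds. At HNF4A it was chr20:43124366-43124817, 45 bp from SERINC3, with a score of 705, at HNF4G chr8:76385086-76385487 (intron) with 405, and at SPINK1 the upstream element with 500. ONECUT1 and GATA4 had 1 JUN region each, with scores of 37 and 208.

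Under siFOXA2 the PC3 JUN list held 6 member regions in place of 36, and 5 of the 36 (13.9%, 6.08 to 28.7) were kept, beside 13.4% of all 23890. The kept regions were the GATA6 region at 136804 bp upstream (821 under siNC and 122 under siFOXA2), the GATA6 region 21131 bp past its end (295 and 86), the SERINC3 region (705 and 106), the C5orf46 intron region (452 and 36) and the recurrent HNF4G region before the gene (180 and 118). The SPINK1 element was the strongest lost. At HNF4G 18 of 19 JUN regions were lost. FOSL1, a partner of JUN in the AP-1 dimer, had 5 member regions under siNC, 4 at HNF4G and 1 at HNF4A, and none under siFOXA2 (0 of 5, interval 0 to 43.4, beside 6.90% kept of all 3843).

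NCI-H660 went the other way in number. Under siFOXA2 its JUN list held 134 member regions in place of 42 (3.19 times), with HNF4G at 103 in place of 29, while the whole list went from 18401 to 59452 (3.23 times). Of the 42, 21 (interval 35.5 to 64.5%) were kept, beside 48.0% of all. Of the 134, 112 were new (83.6%, beside 85.2% of the list), 15 of the 112 were accessible (13.4%, beside 21.1% of all new regions) and 64 were found in this list alone (57.1%, beside 55.5%). The numbers at the loci thus moved as the list did. The difference between the lines was not tested.

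The strongest NCI-H660 JUN region lay 20988 bp past the end of GATA6, at chr18:19803479-19804093, with scores of 2089 under siNC (rank 63 of 18401) and 2033 under siFOXA2. This place recurred in 14 lists. Its JUN score was 295 in PC3 under siNC, 108 in LNCaP under siFOXA1, 221 in FOXA2-overexpressing LNCaP and 496 in LNCaP_FOXA2K265R, and in the latter pair it was the strongest JUN region of the 6 loci. It was accessible in both lines (4136 and 1856), and its FOXA2 score was 27 in vehicle NCI-H660, 130 and 84 in the further PC3 ChIPs and absent in vehicle PC3. The HNF4A region at FITM2 scored 1844 and 452. At HNF4G the strongest was the intron region shared with FOXA2, chr8:76332888-76333214, with 257 under siNC and absent under siFOXA2. Of all 42 NCI-H660 JUN regions, 18 (42.9%, 29.1 to 57.8) were accessible, beside 86.0% of the 18401, and at HNF4G 7 of 29 were (24.1%, 12.2 to 42.1). Elsewhere 5 of 6 were accessible at ONECUT1, 4 of 4 at GATA6, 1 of 1 at HNF4A and 1 of 2 at SPINK1. The 42 regions had a median score of 42.5, beside 78.0 for the whole list. In PC3, 34 of 36 JUN regions were accessible (94.4%), beside 96.0%.

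In LNCaP, JUN had 2 member regions under siNC and 3 under siFOXA1, and 1 of 2 was kept, beside 49.6% of all 2421. JUN had 28 member regions in FOXA2-overexpressing LNCaP cells and 36 in LNCaP_FOXA2K265R, with 8 of the 28 also in the latter (28.6%, 15.3 to 47.1, beside 37.0% of all 23994), and neither list overlapped any of the 43 PC3 FOXA2 regions, beside 1.38% and 4.13% of all.

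Most FOXA2 regions of the loci lay in accessible chromatin. Of the 43 PC3 FOXA2 regions, 36 (83.7%, 70.0 to 91.9) were accessible in PC3, beside 89.3% of all, 32 (74.4%, 59.8 to 85.1) carried H3K27ac, beside 58.7%, and 11 (25.6%, 14.9 to 40.2) were accessible in NCI-H660, beside 22.6%. The H3K27ac share is the only one of these 3 whose interval excludes the share of the whole list. At HNF4G alone, 18 of 25 regions carried H3K27ac (72.0%, 52.4 to 85.7), an interval that contains 58.7%. The intervals count regions as independent, although neighbouring regions in the C5orf46 intron had the same H3K27ac score (1745). Of the 23 NCI-H660 regions, 18 (78.3%, 58.1 to 90.3) were accessible there, beside 90.9%, and 13 (56.5%, 36.8 to 74.4) carried H3K4me2, beside 62.7%. The NCI-H660 accessible share lies below that of its list, whose 90.9% its interval just excludes. Neither interval is a test.

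The transcription starts showed which of the 6 genes lay in open chromatin. Within 1 kb of a start, ATAC regions were found for HNF4G, ONECUT1 and GATA6 in PC3 (3 of 6 genes, beside 77.6% of 19794 protein-coding genes) and for those and GATA4 in NCI-H660 (4 of 6, beside 74.7%). HNF4G had ATAC scores of 1075 and 2618 and the highest H3K27ac score of the starts, 3296. None of the 9 HNF4A starts had an ATAC, H3K27ac or H3K4me2 region in either line, although the LNCaP_FOXA2K265R JUN list had a region of score 33 over 3 of them. The SPINK1 start had an H3K4me2 region (111) and a JUN region (24) in NCI-H660 and none in PC3. FOXA2 was called at the GATA6 start in both lines and, in the further PC3 ChIPs, at the HNF4G start (191 and 108), where NCI-H660 had JUN (159 under siNC and 89 under siFOXA2). Defining markers were checked at starts in the same way. ATAC regions were found at all 4 mesenchymal or basal-like genes (VIM, CAV1, AXL, CD44) in both lines, and the luminal marker KLK3 had none in either line.

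**Figure D5:**
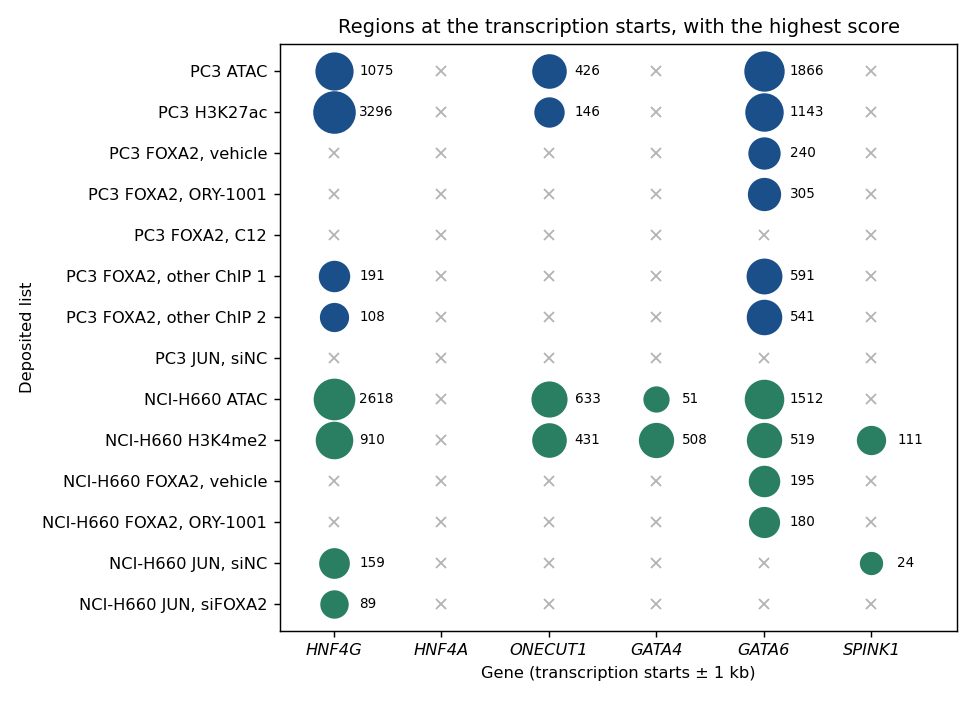
Regions within 1 kb of a transcription start of each gene (x axis) in 14 lists (y axis). Circles mark a region, sized by the log of its highest score, which is printed beside it, and crosses mark none; HNF4A has crosses throughout and GATA6 is the only gene with FOXA2 outside the 2 further ChIPs.

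Other endoderm genes were read in the same way. Among 18 further endoderm factors, 10 had a PC3 FOXA2 region within 100 kb (33 regions), led by the FOXA2 locus itself with 7 regions (best rank 73) and FOXA1 with 6, while 8 had none, among them CDX2 and SOX17. ORY-1001 left 15 of the 33 regions (45.5%) and C12 left 12 (36.4%), beside 36.8% and 29.6% of the whole list. Among 16 hepatic and gastrointestinal products, 14 had a region (48 regions), led by CDH17, an intestinal cadherin, with 9, and MUC13, an epithelial mucin, with 6, and 23 (47.9%, 34.5 to 61.7) and 18 (37.5%, 25.2 to 51.6) were kept. Over all 20136 protein-coding genes, 70.3% had a PC3 FOXA2 region within 100 kb and 52.7% an NCI-H660 one. In NCI-H660 the products had 10 FOXA2 regions at 7 genes and the factors 19 at 9 genes. After FOXA2 siRNA, 5 of 37 PC3 JUN regions at the factors (13.5%) and 4 of 34 at the products (11.8%) were kept, beside 13.4% of the whole list. The intervals of these kept shares contain those of the whole lists.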

How the data were processed

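Chromatin regions were called in 22 libraries of prostate cancer cell lines. Per the methods of the study, 51 nt paired-end reads were aligned to hg19 with bwa 0.7.17-r1188, converted with SAMtools 1.9, and peaks were called with MACS2 2.1.4; each library gave 1 list. The score the authors deposited with each region is a whole number, read here as 10 times −log10 of q. A pair of lists carried no score, and no list carried read counts, so the depth is unknown.

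The 6 genes, the comparison lists and the tests were chosen with earlier results of these data known. Gene bodies, nearest protein-coding genes and starts came from GENCODE v44 on GRCh37. Regions overlapping by at least 1 bp were counted as found again (kept), otherwise as lost or new. Shares carry 95% Wilson intervals. Motifs were searched within 100 bp of region centres. Transcription starts were widened by 1 kb. The regions named were the highest-scoring of each gene in the FOXA2 and JUN control lists, the highest-scoring kept, lost and new region of each comparison, those at transcription starts and those called for FOXA2 in both lines; others were singled out after their values were seen. By the folder names inside the files, each treatment comparison used lists of 1 folder, and JUN and ATAC of PC3 against NCI-H660 were not. The check of neuroendocrine markers is not reported here. Replicates were lacking, so no test was made. Scripts (Python 3.11.15, numpy 2.4.6, pandas 2.3.3, scipy 1.17.1, matplotlib 3.10.9) were tested on simulated data.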

Additional observations from a re-analysis of the deposited data

Results flagged for a closer look

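The number of JUN regions at the 6 loci went in opposite directions in the 2 lines after FOXA2 siRNA. It was 0.167 of the siNC number in PC3 and 3.19 times the siNC number in NCI-H660, and the whole lists went to 0.171 and 3.23 times. Under ORY-1001 the number of FOXA2 regions at the loci was 0.953 of vehicle in PC3 and 1.17 times vehicle in NCI-H660, beside 0.571 and 0.965 for the whole lists. Without HNF4G the numbers were 0.667 in PC3 and 1.18 in NCI-H660, so the PC3 number at the loci rests on HNF4G, which alone went to 1.16 of vehicle. Each number comes from 1 list, and the difference between the lines was not tested.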

How the results depend on the processing

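Of 77 alternative values of the kept and overlap shares at the 6 loci, 64 moved by less than their counting interval and 13 moved further. When both lists were reduced to as many top regions as the shorter one has, the share kept was 67.9% under ORY-1001, 59.1% under C12 and 42.9% for JUN in PC3 (whole lists 53.0%, 61.2% and 47.4%), and the share of PC3 FOXA2 members found in the further FOXA2 ChIPs, a mean of both, was 82.6% (70.4%). The C12 share then lay below that of the whole list. With regions within 100 kb of the genes only, leaving out those taken by nearest gene, the C12 share was 19.2%, also below the list's, and the share of NCI-H660 FOXA2 regions with JUN was 64.3%. Asking for 50% mutual overlap put the share in the further ChIPs at 70.9%. With a score of at least 100 the kept share was 91.7% for FOXA2 and 18.2% for JUN in NCI-H660, and 32.3% of PC3 FOXA2 regions met JUN. For the 64.3%, 70.9%, 91.7%, 18.2% and 32.3% the shares of the whole lists are not given here. These values are therefore not read as particular to the loci. Within 50 kb the LNCaP share was 100%, from few regions. Without HNF4G, an alternative chosen after seeing the data, the LNCaP share was 0% and the share in the further ChIPs 100%, and leaving out either ChIP gave 97.7% each time. Of 86 alternative numbers of regions, 59 stayed within 1.5 times and 27 were lower, 16 of them under the score minimum. Another 4 could not be run, for lists without scores or with no member region left. No paired analysis was possible because every group but the further ChIPs was 1 list. Scores, folds of numbers and kept shares all move with depth, which is unknown.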
